A study of Mus musculus with 80 samples.

Results

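The genes described here are 7 MAP kinase phosphatases among the 14560 genes in the deposited table: Dusp1, Dusp4, Dusp5, Dusp6, Dusp8, Dusp10 and Dusp16. They are a chosen part of the family, whose 3 other catalytic members in the table, Dusp2, Dusp7 and Dusp9, are given further on. The 7 were taken by gene symbol, all 7 were found, and all 7 passed the filter on low values. Their transcripts were followed in livers of 8-week-old female C57BL/6J mice, either wild type or Adamts12-/-, a knockout of a secreted metalloproteinase gene. Each mouse received 1 intraperitoneal injection, either CCl4 at 0.3 ml per kg (diluted to 3% by volume in olive oil) or olive oil alone, called vehicle here. Livers were taken after 4 h, 12 h, 24 h or 7 days, with 5 mice in each of the 16 groups of genotype, treatment and time. CCl4 is a solvent that hepatocytes convert to a toxic radical, and its injection is a standard model of acute liver injury. The knockout mice came from an earlier study, and the labels used here give no further detail of the allele.

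MAP kinase phosphatases are dual-specificity enzymes that switch off the MAP kinases ERK, JNK and p38 by removing phosphate from both the threonine and the tyrosine of the activation loop. Many of their genes are themselves switched on by MAP kinase signalling, so that the enzymes act as feedback inhibitors of the pathway that induces them. They fall into groups by location and substrate. Dusp1, Dusp4 and Dusp5 encode nuclear enzymes made on stimulation. Dusp6 encodes a cytoplasmic phosphatase that prefers ERK. Dusp8, Dusp10 and Dusp16 encode enzymes that prefer JNK and p38. In liver, these kinases take part in the response to injury and in regeneration.

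RefSeq promoter sequences (build GRCm38.p6) were at hand for 6 of the 7 genes, the exception being Dusp4. From 250 bases before to 50 bases after the annotated start they were searched on both strands for 7 motifs, among them the cyclic AMP response element TGACGTCA (CRE), which CREB and ATF proteins bind, and the CArG box, which serum response factor binds. A CRE stood in the promoters of Dusp1 and Dusp8, against 1.79% of all 32817 promoters of this length, and Dusp8 held 2 of them. Dusp5 held 2 CArG boxes side by side, against 1.63% of all promoters with at least 1. The first listed promoter of each gene was searched. The content of G and C was 67% in Dusp1, 73.3% in Dusp8 and 66.7% in Dusp5, against a median of 52.7% over all promoters. The shares of all promoters are not matched for this content. The stretches below carry these matches, with Dusp6, which held none of the 7 motifs, beside them. They are written 5′ to 3′ on the strand of the gene and stop where the annotation of a protein-coding gene begins an exon. Capitals mark every match to a searched motif.
Dusp1, chr17:26508520-26508722, minus strand: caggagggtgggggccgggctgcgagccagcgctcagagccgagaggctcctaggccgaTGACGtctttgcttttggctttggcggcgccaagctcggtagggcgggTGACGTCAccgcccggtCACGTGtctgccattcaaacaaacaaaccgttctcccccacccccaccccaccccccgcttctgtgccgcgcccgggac
Dusp5, chr19:53528895-53529108, plus strand: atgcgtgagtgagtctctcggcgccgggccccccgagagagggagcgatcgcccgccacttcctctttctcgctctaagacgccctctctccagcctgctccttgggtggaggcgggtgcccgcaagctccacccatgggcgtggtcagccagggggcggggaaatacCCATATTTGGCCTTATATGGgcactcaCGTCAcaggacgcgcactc
Dusp6, chr10:99262981-99263230, plus strand: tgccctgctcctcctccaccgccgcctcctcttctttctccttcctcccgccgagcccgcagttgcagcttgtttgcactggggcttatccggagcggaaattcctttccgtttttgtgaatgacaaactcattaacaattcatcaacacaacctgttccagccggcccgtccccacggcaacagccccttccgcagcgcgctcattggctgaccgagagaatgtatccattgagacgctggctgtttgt
Dusp8, chr7:142095285-142095534, minus strand: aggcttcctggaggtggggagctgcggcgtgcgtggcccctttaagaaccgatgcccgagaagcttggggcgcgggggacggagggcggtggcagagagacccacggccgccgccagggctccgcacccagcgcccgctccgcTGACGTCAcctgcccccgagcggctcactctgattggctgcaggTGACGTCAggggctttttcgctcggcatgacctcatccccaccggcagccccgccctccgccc
In Dusp1 the CRE lay from 143 to 136 bases before the start and an E-box (CACGTG, in 7.15% of promoters) from 126 to 121 bases before it. In Dusp8 the CREs lay from 107 to 100 and from 63 to 56 bases before the start. The CArG boxes of Dusp5 covered bases 82 to 73 and 72 to 63 before the start. The partial CRE TGACG, present in 20.8% of promoters and contained in every CRE, also occurred outside a CRE once each in Dusp1, Dusp5 and Dusp16. The AP-1 site TGANTCA (7.81% of promoters), the ATF4 site TGATGNAA (3.97%) and the TATA box TATAAA (13.6%) matched in none of the 6 promoters, and the Dusp6 and Dusp10 windows held no match to any motif searched. These matches describe letters in the windows and are not evidence of binding.

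The libraries held 18.65 to 64.49 M reads in the table (median 32.7 M), recovered from the step between the normalized counts. Adamts12, the targeted gene, averaged 23.6 ± 16.6 normalized counts in wild-type livers (SD, n = 40) and 8.23 ± 5.52 in Adamts12-/- livers (SD, n = 38). The ranges overlapped, and the log2 difference among vehicle livers was -1.43 ± 0.23 (SE, adjusted p = 8.54e-05). The 9 hepatocyte markers were detected in every group. Of the Adamts12-/- libraries taken at 12 h, CCl4 replicate 5 and vehicle replicate 1 were left out of all fits, because each stood with the other treatment. The library labelled CCl4 replicate 5 correlated over all genes at 0.984 with the vehicle livers of its time and at 0.928 with its own group, and the library labelled vehicle replicate 1 at 0.984 with the CCl4 livers and at 0.918 with its own group. Dusp1 was at 214 normalized counts in the first and 6132 in the second, Dusp4 at 11.2 and 1708, and Dusp5 at 29.9 and 3450.0. The remaining 78 libraries were fitted together, and 14558 genes were tested. A gene was called when its adjusted p was under 0.05. Each library came from a separate mouse, by the mouse numbers in the labels. Fold changes are given on the scale of log2(normalized count + 1), which understates the change of low transcripts, and adjusted p-values come from limma with Benjamini-Hochberg adjustment over all genes tested.

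All 7 phosphatase transcripts rose in wild-type livers 4 h after CCl4, where 23.1% of all genes tested were called higher and 20.5% lower. Of all genes called there, 53.0% were higher, or 44.6% with quantile normalization. The 7 were again called higher at 12 h (29% of all genes higher, 29.4% lower) and at 24 h (26.2% higher, 25% lower). The median log2 change of the 7 was 3.54 at 4 h, 3.46 at 12 h and 2.38 at 24 h, against -0.03, -0.05 and 0.04 over all genes. At 7 days the median was -0.05 and none of the 7 was called in either direction, with 0.0275% of all genes called higher and 0.0275% lower. At an unadjusted p under 0.05, 0 of the 7 and 2462 of all genes passed at 7 days in wild type. The size and timing of the rise varied between the members.

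**Figure D1:**
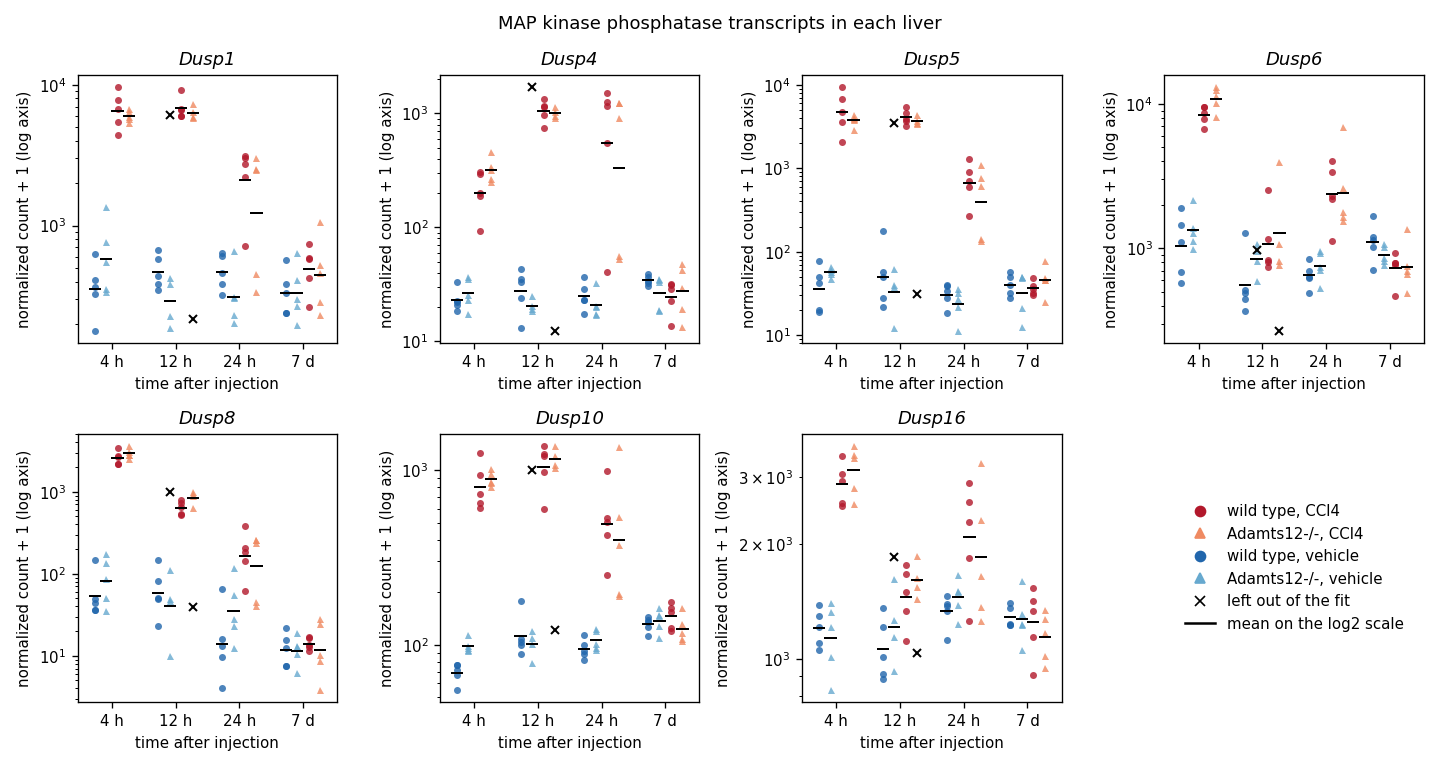
Normalized count plus 1 (log axis) of each transcript in each liver, by time after injection. Circles are wild-type and triangles Adamts12-/- livers, red shades CCl4 and blue shades vehicle, crosses the 2 libraries left out and bars the group mean on the log2 scale. At 4 h every CCl4 liver lies above every vehicle liver for all 7 transcripts, while at 7 days the treatments overlap.

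Dusp5, which encodes a nuclear phosphatase selective for ERK, showed the largest change of the 7 at 4 h and 12 h (ENSMUSG00000034765, chr19:53529109-53542431). The wild-type vehicle livers at 4 h held 18.0, 18.9, 40.8, 48.2 and 76.5 normalized counts, and the CCl4 livers 2047, 3633, 4777, 6680.0 and 9413. The groups were separated by a wide gap. The fitted log2 change was 7.02 ± 0.46 (SE, adjusted p = 9.21e-21), or 130-fold. At 12 h the CCl4 livers held 3203, 3688, 3894, 4579 and 5464 normalized counts against 20.8 to 176 in vehicle livers, a log2 change of 6.36 ± 0.46. At 24 h the CCl4 livers had come down to between 270 and 1303, and the change was 4.46 ± 0.46. At 7 days the range of 29.2 to 47.1 lay within that of the vehicle livers, 26.9 to 55.5. An antisense gene overlaps an exon of Dusp5.

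Dusp1 encodes the best-known inducible MAP kinase phosphatase, a nuclear enzyme that acts on p38 and JNK and also on ERK (ENSMUSG00000024190, chr17:26505590-26562128). Its level in wild-type vehicle livers at 4 h was 177, 325, 365, 411 and 627 normalized counts. In CCl4 livers it was 4366, 5421, 6679, 7801 and 9626. Every treated liver stood above every vehicle liver, and the log2 change was 4.21 ± 0.42 (SE, adjusted p = 3.85e-13). The level held at 12 h (5956 to 9131, log2 change 3.85 ± 0.42) and the step from 4 h to 12 h in CCl4 livers was 0.06 ± 0.42, which was not called. At 24 h it was 709.8 to 3123, with a log2 change of 2.17 ± 0.42. Dusp1 shares an exon overlap with Ergic1 on the opposite strand, and whether the authors counted by strand is not given in the sources used here, so reads of the 2 genes may not be told apart there.

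Dusp4, which encodes a nuclear phosphatase for ERK and JNK, rose further between 4 h and 12 h, alone among the 7 by the test of that step (ENSMUSG00000031530, chr8:34807297-34819894). In wild-type CCl4 livers at 4 h it was at 92.2, 187, 198, 296 and 303 normalized counts, against 17.6 to 32.4 in vehicle livers, a log2 change of 3.12 ± 0.57. By 12 h it had reached 738, 961, 1138, 1162 and 1342, and the vehicle livers held 12.2 to 42.4. The log2 change was 5.25 ± 0.57 (SE, adjusted p = 5.02e-12), and the rise from 4 h to 12 h within CCl4 livers was 2.39 ± 0.57 (adjusted p = 0.000312). At 24 h it was at 39.8, 555, 1168, 1250 and 1509, so that 3 livers lay in the range of 12 h or above it, 1 was lower and 1 was close to vehicle. The fitted change of 4.47 ± 0.57 became 5.40 without that liver, replicate 4.

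Dusp6, the cytoplasmic ERK phosphatase, rose early, fell and rose again (ENSMUSG00000019960, chr10:99263231-99267489). At 4 h the wild-type vehicle livers held 570.2, 684, 1105, 1460.1 and 1891 normalized counts and the CCl4 livers 6708, 7837, 8692, 9459.5 and 9542. The groups did not overlap, and the log2 change was 3.01 ± 0.35 (adjusted p = 5.83e-11). At 12 h the CCl4 livers held 737, 800.1, 823, 1169 and 2529, and the vehicle livers 370.0 to 1268. These ranges overlapped and the log2 change was 0.95 ± 0.35 (adjusted p = 0.0166). The call was lost without CCl4 replicate 2 (log2 change 0.64, adjusted p = 0.114) and without vehicle replicate 4 (0.80, adjusted p = 0.0575). Vehicle replicate 1 held 1268, with the next vehicle liver at 512, and without it the log2 change was 1.25. At 24 h the CCl4 livers held 1118 to 4003 and the vehicle livers 493.6 to 849.3, a log2 change of 1.87 ± 0.35. Within CCl4 livers, the fall from 4 h to 12 h was -2.96 ± 0.35 (adjusted p = 1.32e-10) and the rise from 12 h to 24 h was 1.15 ± 0.35 (adjusted p = 0.00645).

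Dusp8, the first of the JNK and p38 phosphatases, fell stepwise after an early peak (ENSMUSG00000037887, chr7:142079490-142095843). The wild-type CCl4 livers at 4 h held 2170, 2185, 2664, 2706 and 3374 normalized counts, against 34.8, 35.4, 43.2, 48.9 and 145 with vehicle. All treated livers stood far above all vehicle livers, with a log2 change of 5.61 ± 0.57 (adjusted p = 5.5e-13). The CCl4 livers then held 527 to 799 at 12 h, 60.4 to 385 at 24 h and 10.3 to 16.1 at 7 days, and each of the 3 steps down was called. The vehicle livers went down too, from 61.4 ± 46.9 at 4 h to 11.9 ± 6.00 at 7 days (SD, n = 5). The log2 change with CCl4 was 3.46 ± 0.57 at 12 h and 3.57 ± 0.57 at 24 h. The 24 h change depended on the vehicle livers used. Without the wild-type mice numbered below 7000, it was 1.35 and the call was lost. That setting leaves 1 vehicle liver at 24 h, so it cannot decide the size of the change. At 24 h the vehicle livers held 3.01, 8.71, 12.2, 15.1 and 64.4, and the highest of them overlapped with the lowest CCl4 liver. A long noncoding RNA gene on the opposite strand overlaps an exon of Dusp8.

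Dusp10, a JNK and p38 phosphatase found in both nucleus and cytoplasm, was high at 4 h and 12 h and lower at 24 h (ENSMUSG00000039384, chr1:184013302-184075636). The wild-type vehicle livers at 4 h held 54.0, 66.03, 70.7, 75.3 and 75.7 normalized counts and the CCl4 livers 601, 646, 729, 931 and 1251. The log2 change was 3.54 ± 0.27 (adjusted p = 5.72e-18), followed by 3.21 ± 0.27 at 12 h and 2.38 ± 0.27 at 24 h. The ranges did not overlap at any of these times. The step between 4 h and 12 h in CCl4 livers, 0.37 ± 0.27, was not called, and the fall from 12 h to 24 h was -1.08 ± 0.27 (adjusted p = 0.00085).

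Dusp16, the JNK and p38 phosphatase with the longest exon sequence of the 7, had the smallest fitted change of the 7 at each of the 3 early times (ENSMUSG00000030203, chr6:134715468-134792625). At 4 h it was at 1055, 1096, 1209, 1298 and 1385 normalized counts in wild-type vehicle livers and at 2517, 2563, 2934, 3061 and 3410 in CCl4 livers. The groups were apart, with a log2 change of 1.26 ± 0.18 (adjusted p = 1.55e-08). At 12 h the ranges overlapped, and the log2 change was 0.46 ± 0.18 (adjusted p = 0.0224). That call was lost on leaving out any of CCl4 replicates 2 and 5 or vehicle replicates 2 and 3 (adjusted p from 0.059 to 0.0687) and with quantile normalization (0.0832). At 24 h the ranges overlapped too, with a change of 0.65 ± 0.18 (adjusted p = 0.00163). As with Dusp6, the level in CCl4 livers fell from 4 h to 12 h (-0.98 ± 0.18, adjusted p = 3.8e-06) and rose from 12 h to 24 h (0.52 ± 0.18, adjusted p = 0.015).

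Over the successive times in wild-type CCl4 livers, Dusp4, Dusp6, Dusp8 and Dusp16 changed between 4 h and 12 h, where 52.9% of all genes did. Between 12 h and 24 h all members but Dusp4 changed (40.3% of all genes), and between 24 h and 7 days all 7 fell (57.6% of all genes changed). The same 4 members changed between 4 h and 12 h in Adamts12-/- livers (46.1% of all genes), with Dusp4 higher and Dusp6, Dusp8 and Dusp16 lower in both genotypes. Between 12 h and 24 h Dusp1, Dusp4, Dusp5, Dusp8 and Dusp10 fell in Adamts12-/- livers (25.5% of all genes changed). The fall of Dusp4 (-1.60 ± 0.60, adjusted p = 0.0427) came with overlapping groups: replicates 2 and 4 were at 55.3 and 51.2 normalized counts, and the other 3 livers held 916, 1229 and 1240.3, against 914 to 1147 in the 4 fitted livers at 12 h. All 7 fell between 24 h and 7 days (51% changed). The Dusp6 step from 12 h to 24 h was 0.92 ± 0.37 in the knockout (adjusted p = 0.0574), and the Dusp16 step was 0.20 ± 0.19 (adjusted p = 0.469).

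**Figure D2:**
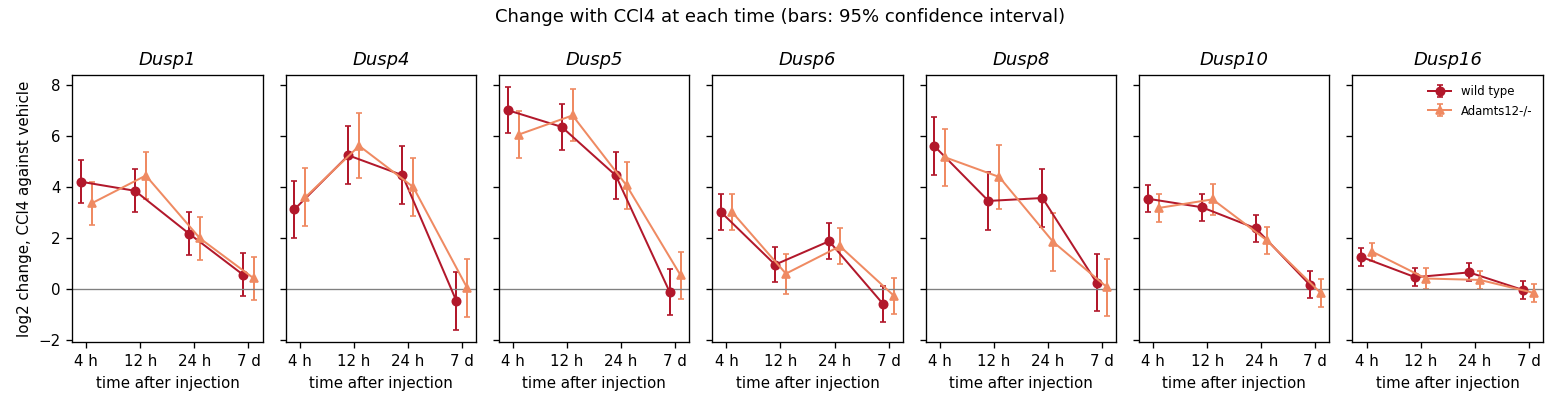
Fitted log2 change with CCl4 against vehicle (y axis) by time after injection for each transcript, with 95% confidence intervals, in wild-type (circles) and Adamts12-/- livers (triangles). Dusp5 reaches 7.02 at 4 h in wild type, Dusp4 is at 5.25 at 12 h and 4.47 at 24 h (5.40 without 24 h replicate 4), and Dusp6 dips at 12 h to 0.95 before 1.87 at 24 h.

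The Adamts12-/- livers showed the same 7 rises at 4 h, with 21.1% of all genes called higher and 17.7% lower. Of the genes called there, 54.5% were higher, or 44.3% with quantile normalization. Dusp5 was at 2907, 3826, 3929, 4032 and 4361 normalized counts with CCl4 and at 46.1 to 65.3 with vehicle. Dusp6 was at 8083, 10129, 11440.2, 12504 and 13112, against 993 to 2162 with vehicle, and the treatments did not overlap for any of the 7. The log2 changes in knockout at 4 h were 6.06 ± 0.46 for Dusp5, 5.17 ± 0.57 for Dusp8, 3.59 ± 0.57 for Dusp4, 3.36 ± 0.42 for Dusp1, 3.18 ± 0.27 for Dusp10, 3.03 ± 0.35 for Dusp6 and 1.47 ± 0.18 for Dusp16.

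At 12 h in Adamts12-/- livers 5 of the 7 were called higher (23.6% of all genes higher, 23.1% lower). Dusp5 changed by 6.82 ± 0.51, Dusp4 by 5.62 ± 0.64, Dusp1 by 4.45 ± 0.47, Dusp8 by 4.40 ± 0.63 and Dusp10 by 3.52 ± 0.30 on the log2 scale. Dusp6 had a difference of 0.60 ± 0.39 (adjusted p = 0.209). Its 4 CCl4 livers held 771, 820.2, 1065 and 3946 normalized counts, and 1 of them, replicate 1, stood far above the rest. Without it the difference was 0.06. Dusp16 had a difference of 0.41 ± 0.20 (adjusted p = 0.0839), which was called without vehicle replicate 3 (0.55, adjusted p = 0.0299). With the 2 libraries left out put back under their labels, the same 5 members were called, at 4.09 for Dusp5, 3.07 for Dusp4, 2.60 for Dusp1, 2.59 for Dusp8 and 2.21 for Dusp10. Dusp8 changed by 3.73 without vehicle replicate 3.

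At 24 h in Adamts12-/- livers all but Dusp16 were called higher (21.1% of all genes higher, 23% lower), with log2 changes of 4.06 ± 0.46 for Dusp5, 4.00 ± 0.57 for Dusp4, 1.99 ± 0.42 for Dusp1, 1.91 ± 0.27 for Dusp10, 1.84 ± 0.57 for Dusp8 and 1.68 ± 0.35 for Dusp6. The treatments overlapped for Dusp1 and Dusp8. Dusp8 was not called in a fit of the groups compared alone (adjusted p = 0.068). Dusp16 differed by 0.35 ± 0.18 (adjusted p = 0.101). At 7 days none of the 7 was called, with 0.309% of all genes called higher and 0.385% lower.

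The 24 h CCl4 livers were not alike. Dusp4 was at 555 to 1509 normalized counts in 7 of the 10 livers. It was at 39.8 in wild-type replicate 4 and at 55.3 and 51.2 in Adamts12-/- replicates 2 and 4, where the 10 vehicle livers of that time held 15.9 to 35.4. The same 3 livers had the lowest Dusp1 (709.8, 452 and 334, against 2217 to 3123 in the other 7), the lowest Dusp5 (270, 142 and 132, against 596 to 1303) and the lowest Dusp10 (249.9, 189 and 194, against 371 to 982 in 6 others and 1354 in knockout replicate 5). Dusp8 followed, at 60.4 in the wild-type liver and at 39.7 and 44.8 in the knockout livers, against 142 to 385 in the rest. Relative to the vehicle mean of their genotype, Dusp5 was still raised in these 3 livers by 3.15, 2.59 and 2.49 on the log2 scale, and Dusp6 by 0.78, 1.13 and 1.25, where knockout replicate 3 also stood low at 1.02. Dusp16 lay at -0.09, -0.08 and -0.21, below the vehicle mean in all 3.

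**Figure D3:**
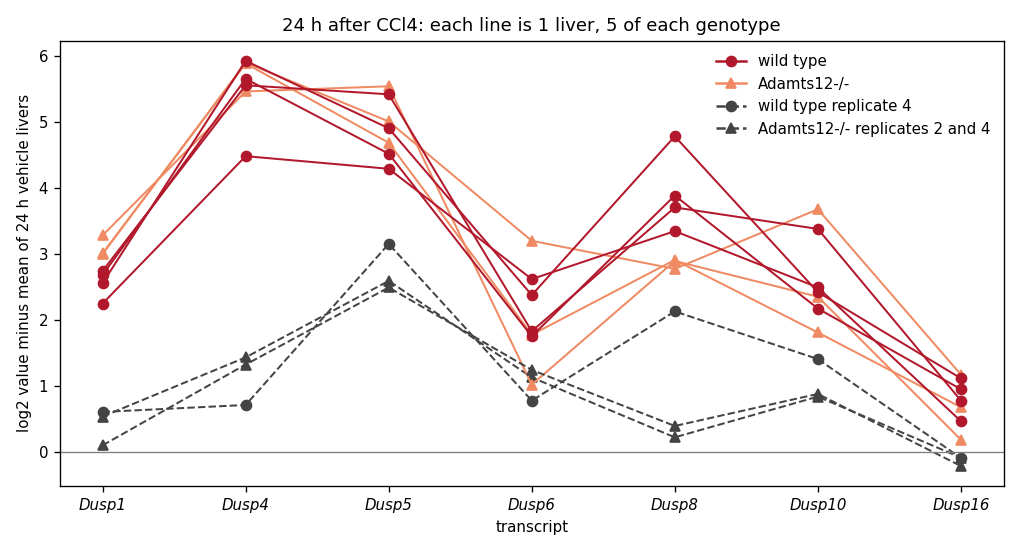
Log2 value of each transcript in each 24 h CCl4 liver minus the mean of the 24 h vehicle livers of its genotype. Each line is 1 liver, and the dashed grey lines are wild-type replicate 4 and Adamts12-/- replicates 2 and 4. The dashed lines lie at 0.71 to 1.44 for Dusp4, where the 7 other livers lie at 4.48 to 5.92, and mingle with the others for Dusp6.

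Over all genes, knockout replicate 2 correlated at 0.966 with the 24 h vehicle livers and at 0.962 with its own group, knockout replicate 4 at 0.954 and 0.966, and wild-type replicate 4 at 0.927 and 0.931. Over all 16 groups, knockout replicates 2 and 4 were nearest to the 12 h vehicle livers of their genotype. Without these 2 libraries, a comparison chosen after seeing the data, all 7 members were called higher in the knockout at 24 h, among them Dusp4 at 5.75, Dusp5 at 5.08, Dusp1 at 3.10, Dusp8 at 2.86, Dusp10 at 2.61 and Dusp16 at 0.68 (adjusted p = 0.00202). Leaving out knockout replicate 2 or 4 alone gave 4.64 or 4.67 for Dusp4, and Dusp16 was then called (adjusted p = 0.0349 and 0.0225). The summed hepatocyte markers in the 3 livers were 2958990, 3155370 and 3019810 normalized counts, above the 1810490 to 2432530 of the other 7. The neutrophil markers summed to 1480, 765 and 302, against 1891 to 5253. Wild-type replicate 4 also had the highest sums of T or B lymphocyte markers (1498, against 87.3 to 226 in the other 9) and of monocyte or macrophage markers (25242, against 6839 to 18255) and of stellate cell markers (9810.0, against 2032 to 5158). Knockout replicates 2 and 4 had the lowest sums of monocyte or macrophage markers (8193 and 6839) and of Kupffer cell markers (9243 and 7739) of the 10 livers. The part of these differences in the phosphatase levels was not tested.

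Within a group, the members varied together where the treated livers differed. Deviations from the group mean on the log2 scale gave a Pearson r for each of the 21 pairs of members, given as a description. Over the 10 livers of the 24 h CCl4 groups the median r was 0.80, and Dusp1 with Dusp4 had 0.97. These 10 include the livers described above with the lowest Dusp1, Dusp4, Dusp5, Dusp8 and Dusp10, and r without them was not computed. Over the 19 livers of the 4 h and 12 h CCl4 groups the median was 0.33 and the lowest -0.49, with 0.57 for Dusp1 and Dusp4. Over the 10 livers of the 7 day CCl4 groups the median was 0.26, from -0.55 to 0.80. Over the 39 vehicle livers it was 0.14, no pair exceeded 0.5, and Dusp6 with Dusp16 had the highest value, 0.41. The points share libraries and their depths.

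Across the 16 group means Pearson r between members ran from 0.57 to 0.99. Dusp1 and Dusp5 had 0.99, Dusp5 and Dusp10 0.98, Dusp6 and Dusp16 0.94, and Dusp4 and Dusp6 0.57. Dusp8 had 0.93 with Dusp5 and 0.80 with Dusp6. The vehicle means share a low level, and the measure is a description. Among 10310 other genes with a mean of at least 100, those most like each member over the 16 means were Pvr (0.996), Kctd3 (0.992) and Atf3 (0.991) for Dusp5, and Lrrfip2, Pvr and 5430416N02Rik (0.987 to 0.982) for Dusp1. For Dusp4 they were Sprr1a, Hspb1 and Bmp8b (0.986 to 0.983), and for Dusp8 Noc3l, Dhx33 and Ippk (0.993 to 0.99). Psph, Ptpn23 and Srxn1 were nearest to Dusp10 (0.984 to 0.982). Acsl4, Zswim6 and Plekhf2 were nearest to Dusp6 (0.976 to 0.974), and Plekhf2, Frmd8 and Ubr4 to Dusp16 (0.96 to 0.948).

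Levels were compared between genes only per kilobase of annotated exon. In wild-type vehicle livers at 4 h, Dusp6 was the most abundant of the 7 at 365 ± 175 normalized counts per kb (SD, n = 5). Dusp16 followed at 155 ± 17.6 and Dusp1 at 115 ± 49.3, whose ranges overlapped. Dusp10 (22.5 ± 2.93), Dusp5 (16.4 ± 9.76), Dusp8 (12.6 ± 9.63) and Dusp4 (8.19 ± 2.11) formed a low group in which each neighbour overlapped with the next. At 4 h after CCl4, Dusp6 (2697 ± 381), Dusp5 (2147 ± 1152) and Dusp1 (2047 ± 619) overlapped at the top, Dusp8 stood apart at 538 ± 101, and Dusp4 was lowest at 78.5 ± 31.8. At 12 h Dusp1 (2080.0 ± 393) and Dusp5 (1685 ± 355) were above the other 5, whose means ran from 390 for Dusp4 to 133 for Dusp8.

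The make-up of the 7 transcripts shifted with treatment and time. Their summed level per kb in wild-type livers was 694 ± 161 with vehicle and 8150 ± 2270 with CCl4 at 4 h (SD, n = 5), and 5220 ± 646, 2670 ± 1000 and 632 ± 88.8 with CCl4 at the later times. Dusp6 made up 50.3% ± 13.9 of the sum with vehicle and 34.2% ± 4.95 with CCl4 at 4 h. At 12 h it made up 32.9% ± 6.58 with vehicle and 7.46% ± 4.52 with CCl4. At 24 h it made up 36.1% ± 6.25 with vehicle and 32.2% ± 9.36 with CCl4, and the ranges overlapped. Dusp1 and Dusp5 together took over at 12 h with CCl4, at 39.7% ± 2.68 and 32.2% ± 4.57. With vehicle at 12 h they held 26.2% ± 4.52 and 4.03% ± 2.24. With CCl4, Dusp4 went from 0.935% ± 0.201 at 4 h to 7.61% ± 2.19 at 12 h and 10.7% ± 6.27 at 24 h. With vehicle it held 1.21%, 1.93% and 1.54% at these times. Dusp16 fell from 23% ± 3.69 with vehicle to 4.94% ± 1.95 with CCl4 at 4 h although its own level rose. In Adamts12-/- livers at 12 h the shares with CCl4 were 37.9% ± 2.74 for Dusp1, 29.9% ± 4.93 for Dusp5 and 9.7% ± 7.71 for Dusp6 (n = 4). These shares rest on exon lengths from the annotation, not on the isoforms in liver.

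**Figure D4:**
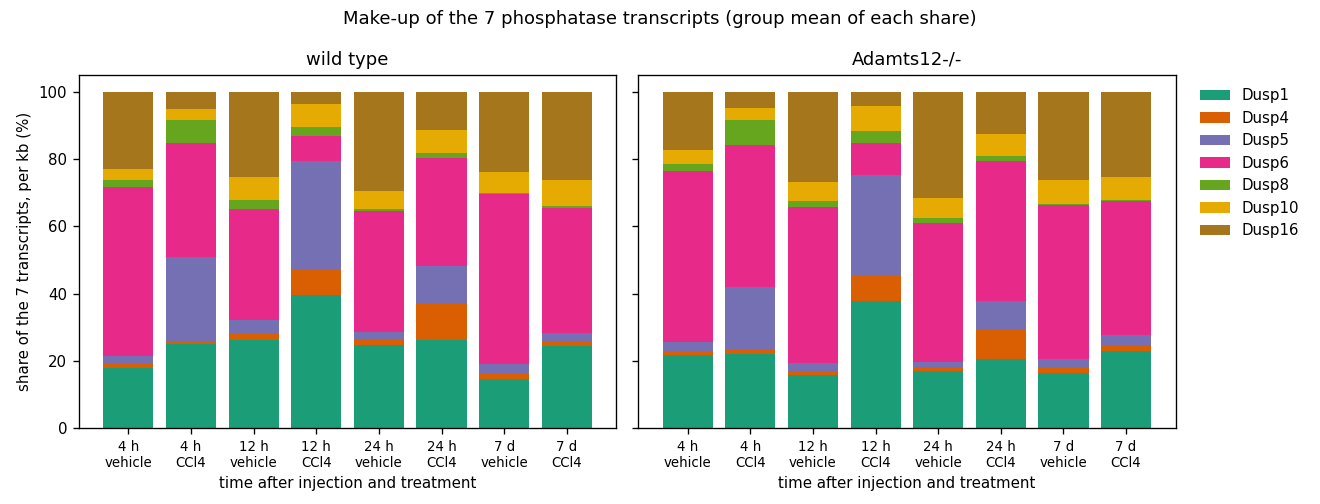
Mean share (%) of each transcript in the summed level of the 7 per kb of exon, by time and treatment, in wild-type (left) and Adamts12-/- (right) livers. With CCl4 at 12 h Dusp1 and Dusp5 hold 39.7% and 32.2% of the sum in wild type and Dusp6 7.46%, while Dusp6 holds 50.6% with vehicle and 37.4% with CCl4 at 7 days.

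No member responded to CCl4 in a way that was called different between the genotypes. The test of the difference called 0 of the 7 at 4 h, 12 h, 24 h and 7 days, where it called 0.00687%, 0%, 0% and 0.00687% of all genes, and 0 in the F test over all times (0.0137% of all genes). The interval of the difference was wide for most members. For Dusp6 at 4 h it was 0.01 on the log2 scale with a 95% interval of -0.97 to 1.00, and for Dusp16 0.21, with an interval of -0.29 to 0.71. The difference farthest from 0 was that of Dusp8 at 24 h, -1.73 ± 0.80 with an interval of -3.33 to -0.13 (adjusted p = 0.936, unadjusted p = 0.0345 from limma). The wild-type change behind it, 3.57, was 1.35 without the wild-type mice numbered below 7000. That leaves 1 vehicle liver at 24 h, the one at 64.4 normalized counts, and a single liver has no spread of its own.

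Compared directly, Adamts12-/- and wild-type CCl4 livers differed in none of the 7 at 4 h (0.584% of all genes called), 12 h (0.0206%), 24 h (0.0137%) or 7 days (0%). Among vehicle livers over all times 0 of the 7 and 0.282% of all genes were called. There the knockout minus wild-type differences ran from -0.21 (Dusp4, 95% interval -0.79 to 0.37) to 0.34 (Dusp8, -0.24 to 0.91) on the log2 scale.

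Vehicle livers were not level over time. In wild type the F test called Dusp6 (adjusted p = 0.0351), Dusp8 (0.000326) and Dusp10 (0.0224), with 38.9% of all genes called, a share close to that of the members. The count of 3 became 1 without 4 h vehicle replicate 5, with all 80 libraries, or without the mice numbered below 7000. In Adamts12-/- vehicle livers it called Dusp8 (adjusted p = 0.00051), with 41.7% of all genes called. Dusp10 was at 68.3 ± 8.91 normalized counts in wild-type vehicle livers at 4 h and at 130 ± 12.1 at 7 days (SD, n = 5). Dusp6 was at 1142 ± 548 at 4 h, 618 ± 368 at 12 h and 1146 ± 348 at 7 days. Each CCl4 group was compared with the vehicle livers of its own time. In wild type, some of these groups differed in mouse number, and the labels do not say what it stands for. Without the 12 mice numbered below 7000, 1 vehicle liver was left at 24 h, while every 24 h CCl4 mouse had a higher number. At 7 days 1 CCl4 and 3 vehicle livers were left, and at 12 h 3 CCl4 livers. Treatment and mouse number thus ran largely together at 24 h and cannot be told apart there.

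The 3 other catalytic MAP kinase phosphatases were Dusp2, Dusp7 and Dusp9. Dusp9 rose from 9.08 to 66.8 normalized counts at 4 h in wild type. It rose from 5.31 to 221 at 12 h (log2 change 5.41 ± 0.59, adjusted p = 5.42e-12) and from 3.82 to 57.8 at 24 h. The value of 3 reads is up to 6.02 normalized counts, so its vehicle levels at 12 h and 24 h rest on few reads, which limits these fold changes. Dusp7, which encodes a cytoplasmic ERK phosphatase, was higher at 12 h (158 to 555, log2 change 1.73 ± 0.22, adjusted p = 5.82e-10) and was not called at 4 h (0.06) or 24 h (0.43). Dusp2, known from immune cells, was called at 12 h (12.5 to 37.5) and 24 h (13.1 to 46.2). In Adamts12-/- livers each of these 3 was called at the same times. Of 9 measured atypical dual-specificity phosphatases, which lack the MAP kinase binding domain, 2 rose and 4 fell at 4 h. At 12 h 3 rose and 1 fell, and at 24 h 2 rose and 3 fell, with medians of -0.40, 0.09 and -0.02. Over all genes 23.1%, 29% and 26.2% were called higher and 20.5%, 29.4% and 25% lower. The counts that rose in this list are near those shares.

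The kinases that these phosphatases act on, and those above them, were counted in 2 lists. Of 17 genes of the Ras and ERK cascade 7 rose and 2 fell at 4 h in wild type, 11 rose and 2 fell at 12 h, and 6 rose and 2 fell at 24 h. Their medians were 0.28, 0.33 and 0.17 on the log2 scale. Map2k1 changed by 0.85 ± 0.10 at 4 h, and Mapk7 by 2.17 ± 0.23 at 12 h. Of 20 genes of the JNK and p38 cascades, 9, 7 and 5 rose and 0, 2 and 2 fell, with medians of 0.20, 0.07 and 0.14. Over all genes 23.1%, 29% and 26.2% were called higher at these times and 20.5%, 29.4% and 25% lower. The counts of this list that rose at 12 h and 24 h are near the shares called higher. The kinase genes Map3k2 (1.71 ± 0.17) and Map3k5 (1.37 ± 0.15) rose at 4 h, Map2k3, which activates p38, rose by 2.01 ± 0.16 at 12 h, and Map3k6 by 3.86 ± 0.46.

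Other feedback inhibitors of the pathway were split. Of 14 measured, 6 rose and 0 fell at 4 h in wild type, and 5 rose and 3 fell at 12 h. At 24 h 6 rose and 2 fell, and the medians were 0.20, 0.26 and 0.34. Over all genes 23.1%, 29% and 26.2% were called higher and 20.5%, 29.4% and 25% lower at these times. The 12 h counts of this list are near those shares. Spred1, an inhibitor of Ras activation, rose by 1.67 ± 0.16 at 4 h and 1.25 ± 0.16 at 24 h. Errfi1, an inhibitor of the EGF receptor, rose by 0.92 ± 0.33 at 4 h, fell by -1.27 ± 0.33 at 12 h and was the 1 gene of the list called at 7 days (1.64 ± 0.33, adjusted p = 0.0159). Of 17 measured transcription factors that respond to MAP kinases, 10 rose at each of the 3 times, and 0, 2 and 0 fell, with medians of 1.26, 1.00 and 1.01. Atf3 rose by 6.94 ± 0.58 at 4 h and 7.76 ± 0.58 at 12 h, Myc by 5.38 ± 0.45 at 12 h, and Srf, the factor of the CArG box, by 1.97 ± 0.18 at 4 h.

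Among 9 kinases that act downstream of MAP kinases 4, 7 and 6 rose and 0, 1 and 0 fell at 4 h, 12 h and 24 h. Their medians were 0.57, 1.32 and 0.74. Over all genes 23.1%, 29% and 26.2% were called higher and 20.5%, 29.4% and 25% lower. Mapkapk2, a p38 target kinase, rose by 1.69 ± 0.22 at 4 h. Of 15 receptor tyrosine kinases and ligands 4, 4 and 5 rose and 2, 6 and 4 fell, with medians of 0.42, -0.41 and 0.12, and the counts that rose are near the shares of all genes (23.1%, 29% and 26.2%). The EGF receptor ligands Btc (4.89 ± 0.27) and Hbegf (5.23 ± 0.38) and the hormone gene Fgf21 (7.50 ± 0.73) rose at 4 h, while Erbb3 fell by -1.52 ± 0.28 at 4 h and -2.44 ± 0.28 at 12 h. These lists were measured in the same livers as the 7 members, and their medians stand beside all-gene medians of -0.03, -0.05 and 0.04.

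Cell type markers were counted at the same times. Of all genes, 23.1%, 29% and 26.2% were called higher in wild type at 4 h, 12 h and 24 h. The shares called lower were 20.5%, 29.4% and 25%. Of 9 hepatocyte markers 3 fell at 4 h in wild type, 9 at 12 h and 6 at 24 h, and their summed level went from a range of 4082770 to 5618860 normalized counts with vehicle to 1518170 to 3162180 with CCl4 at 12 h. All 8 sinusoidal endothelial markers fell at 12 h. Of 6 Kupffer cell markers 4 fell at 12 h and 2 at 24 h. Of 5 cholangiocyte markers 3 rose at 4 h, 3 at 12 h and 1 at 24 h. None of 7 T or B lymphocyte markers was called at these times, and of 8 stellate cell markers 3 fell at 12 h, and 2 rose and 2 fell at 24 h. Of 4 measured neutrophil markers 2 rose at 24 h. Of 8 monocyte or macrophage markers 1, 2 and 5 rose at 4 h, 12 h and 24 h, 1 fell at 12 h, and their summed level at 24 h was 10335 to 25242 with CCl4 against 4988 to 12049.9 with vehicle. The stellate cell counts that fell at 12 h and that rose and fell at 24 h are near the shares of all genes. So are the Kupffer cell count at 24 h and the monocyte or macrophage count that rose at 12 h. No hepatocyte, endothelial or monocyte marker was at 0 throughout a wild-type group. In bulk liver, fewer cells of a type and less RNA per cell cannot be told apart, and the part of cell make-up in the phosphatase levels was not tested.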

How the data were processed

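Liver RNA of 80 mice was sequenced from stranded mRNA libraries. Per the submitters' processing notes, STAR, HTSeq and DESeq2 were used with build GRCm38; versions and the strand setting of counting are not given in the sources used here. The values the authors deposited are a normalized signal, read counts per gene divided by a size factor per library, and every value was a whole multiple of its library's step (tolerance 0.01). They are called normalized counts.

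Genes with at least 10 in at least 5 libraries were kept (14558 of 14560). log2(value + 1) was fitted in 78 libraries with limma 3.58.1 (R 4.3.3), with 1 mean for each of 16 groups and a variance trend. Two-sided p-values were adjusted by Benjamini-Hochberg within each comparison and called under 0.05, and intervals are 95%. The fit was tested on simulated data. Exon lengths and coordinates came from GENCODE M21. Each list names up to 4 genes with the smallest adjusted p in each wild-type comparison, any gene of a count of 5 or fewer and, for each member, its 3 likest genes. The members and lists were chosen with earlier results of these data known. Alternatives were pseudocounts, filters, quantile normalization, all 80 libraries, a replicate block, the groups compared alone, and leaving out mice numbered below 7000 or each library in turn. Limma-voom on recovered reads, and a fit without 2 Adamts12-/- libraries of 24 h, were added after seeing the data.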

Additional observations from a re-analysis of the deposited data

Results flagged for a closer look

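In groups of 4 or 5 livers, the highest or lowest value was compared with the rest by Dixon's criterion. Chance meets it in about 5% of groups when values are normally distributed. Of 112 combinations of member and group, 12 met it, all through a high value in normalized counts. These counts were not put on a log scale and the combinations share livers, so the 12 cannot be set against the 5%. With CCl4 these were Dusp1 at 9130 in wild-type 12 h replicate 3 (next highest 6720), Dusp6 at 2530 in wild-type 12 h replicate 2 (next 1170), Dusp6 at 3950 in Adamts12-/- 12 h replicate 1 (next 1060) and Dusp6 at 6970 in Adamts12-/- 24 h replicate 5 (next 2600).

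With vehicle, wild-type 12 h replicate 1 stood high for 3 members, with Dusp5 at 176 (next 55.6), Dusp6 at 1270 (next 512) and Dusp10 at 178 (next 107). Dusp8 was at 145 in wild-type 4 h replicate 4 (next 48.9) and at 64.4 in wild-type 24 h replicate 5 (next 15.1). Dusp4 was at 32.4 in wild-type 4 h replicate 5 (next 21.6) and at 31.6 in Adamts12-/- 24 h replicate 5 (next 19.2). Dusp1 was at 656 in Adamts12-/- 24 h replicate 1 (next 311).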

How the results depend on the processing

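No called result changed direction. The number of members called for CCl4 against vehicle stayed within 1.5 times its main value in every setting run. Of the log2 changes of single members, 604 results of settings other than leaving out 1 replicate kept their side of the threshold. Those settings include the fits without the mice numbered below 7000 and without 2 Adamts12-/- libraries of 24 h. With 1 replicate left out, 529 results kept their side. Over both kinds of setting 10 fell below the threshold and 6 rose above it. Another 5 and 8, all of 7 days and never called, changed sign. The number of members that differed between times in wild-type vehicle livers was 3. It was 1 with all 80 libraries, 1 without the 12 wild-type mice numbered below 7000, and 1 to 3 with 1 replicate left out, the lowest without 4 h vehicle replicate 5. In Adamts12-/- vehicle livers it was 1, and 3 when the groups compared were fitted alone. The cause was not tested. Dusp8 at 24 h in wild type changed by 2.94 with a pseudocount of 8. Without the mice numbered below 7000 it changed by 1.35, with 1 vehicle liver left, and was no longer called. In the same setting, Dusp6 at 12 h in wild type changed by 0.50 (adjusted p = 0.292). Dusp16 at 24 h in Adamts12-/- was called with quantile normalization (adjusted p = 0.0289).

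CCl4 and vehicle libraries of equal replicate number did not as a rule deviate together (8 of 38 pairs had r over 0.1). The fits therefore did not pair the samples by replicate number, though so few pairs cannot exclude a pairing. With the replicate number as a block, 6 members were called at 12 h in Adamts12-/- livers in place of 5, Dusp16 being added (0.45, adjusted p = 0.0475), and the other counts of members did not move.

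Over all genes, the number called went from 6805 to 2397 for Adamts12-/- at 12 h with all 80 libraries, from 6424 to 4266 for Adamts12-/- at 24 h with the groups compared alone, and from 7458 to 2743 for wild type at 24 h without the mice numbered below 7000. At 7 days it was 8 in wild type, and 855 without CCl4 replicate 4. That library, kept in the main fit, correlated at 0.991 with the vehicle livers of its time and at 0.985 with its own group. The number called at 7 days in Adamts12-/- was 101, with 6 to 286 over the settings. The planned edgeR and DESeq2 fits were not run, since the deposited values are divided by size factors and are not counts. Limma-voom on the recovered reads took their place. The value of 3 reads is up to 6.02 normalized counts, so that the lowest vehicle values, such as those of Dusp8 at 24 h and 7 days, rest on few reads, which limits their fold changes.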
